A study of Mus musculus with 9 samples.

Results

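Chemokine ligands are small secreted proteins that draw white blood cells along a gradient by binding G protein-coupled receptors, and the family is divided by the spacing of its first cysteines into CC ligands (Ccl genes) and CXC ligands (Cxcl genes). Inflammatory CC ligands such as Ccl3 and Ccl4 are made by activated macrophages, mast cells and basophils, while Cxcl12, made by bone marrow stroma, holds blood stem cells in the marrow through the receptor Cxcr4. The 10 genes described here were taken by symbol (Ccl2, Ccl3, Ccl4, Ccl6, Ccl9, Ccl17, Ccl22, Cxcl2, Cxcl5 and Cxcl12) out of 18797 gene symbols on the arrays. All 10 had a transcript cluster of their own, that is, a set of probes summed to 1 signal per gene, and none needed a choice between clusters.

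The 9 arrays came from C57BL/6 female mice aged 8 weeks, dosed with 5-fluorouracil (150 mg/kg) 6 days ahead of marrow collection. Lineage-negative, Sca-positive, Kit-positive cells were enriched magnetically, infected with retrovirus and sorted for green fluorescence after 72 h in culture. The groups, of 3 arrays each, received the empty vector MIE, which carries EGFP alone, the same kind of vector with GATA2 wild type cDNA, or with cDNA of the GATA2 variant R396Q. Cells that normally depend on this DNA-binding regulator include blood stem cells, mast cells and the precursors of megakaryocytes. The vector adds GATA2 to cells that keep their own gene, and the labels give neither the species of the cDNA nor whether the 3 samples of each group are from different mice, so p-values measure only the spread between these samples.

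Values are the authors' RMA (robust multiarray average) signals on the log2 scale. The median log2 signal per array was 6.06 to 6.19 and the lower quartile 4.54 to 4.60, and the deposited values hold no call of signal above background. Gata2 read 9.65 to 9.87 with empty vector, 10.94 to 11.50 with wild type and 10.53 to 10.72 with R396Q. The labels give the tissue as blood and the cells as hematopoietic stem cells, while the protocol describes bone marrow. Of genes that mark the sorted cells, Kit read 12.22 to 12.38 with empty vector, 9.42 to 9.50 with wild type and 10.32 to 10.58 with R396Q. The progenitor marker Cd34 read 12.94 to 13.46, 8.41 to 8.69 and 12.77 to 12.83 in the same order, and the stem cell marker Slamf1 6.76 to 7.31, 10.15 to 11.21 and 9.54 to 10.93. Of other stem cell markers, Hlf read 6.14 to 7.63 over the 9 arrays and Procr 4.98 to 5.34, under the median of each array. Mpo, a granule enzyme of neutrophil precursors, read 17.46 to 17.61 with empty vector. Arrays with the same replicate number deviated together from their group means, so changes are also given within each number. In these bulk samples, fewer cells of a type and less RNA per cell cannot be told apart.

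The first question was how added wild type GATA2 changed these genes relative to the empty vector. Of the 10 ligand genes 4 rose with wild type, Ccl4, Ccl6, Ccl17 and Cxcl5, and none fell (limma, Benjamini-Hochberg adjusted p under 0.05 over all 21072 clusters). Over all clusters, 4.64% rose, 4.35% fell and 8.99% changed in either direction. All wild type arrays lay above all empty vector arrays for 5 of the 10 genes, those 4 and Ccl3, and below for none, against 10.8% and 11.8% of all clusters (22.6% in either direction). The median change of the 10 genes was 0.76 on the log2 scale, against -0.01 over all clusters. Ccl3 had a larger change than any of those 4 but also a larger spread, and missed the threshold without the replicate number in the model. With the number as a block, 5 genes rose, the added gene being Ccl3. That fit also called more of all 21072 clusters, 1685 higher and 1982 lower. The count of 4 was 1 without empty vector 1 or 2, 2 without empty vector 3 or wild type 1 or 3, and 0 in a fit on these 2 groups alone.

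**Figure D1:**
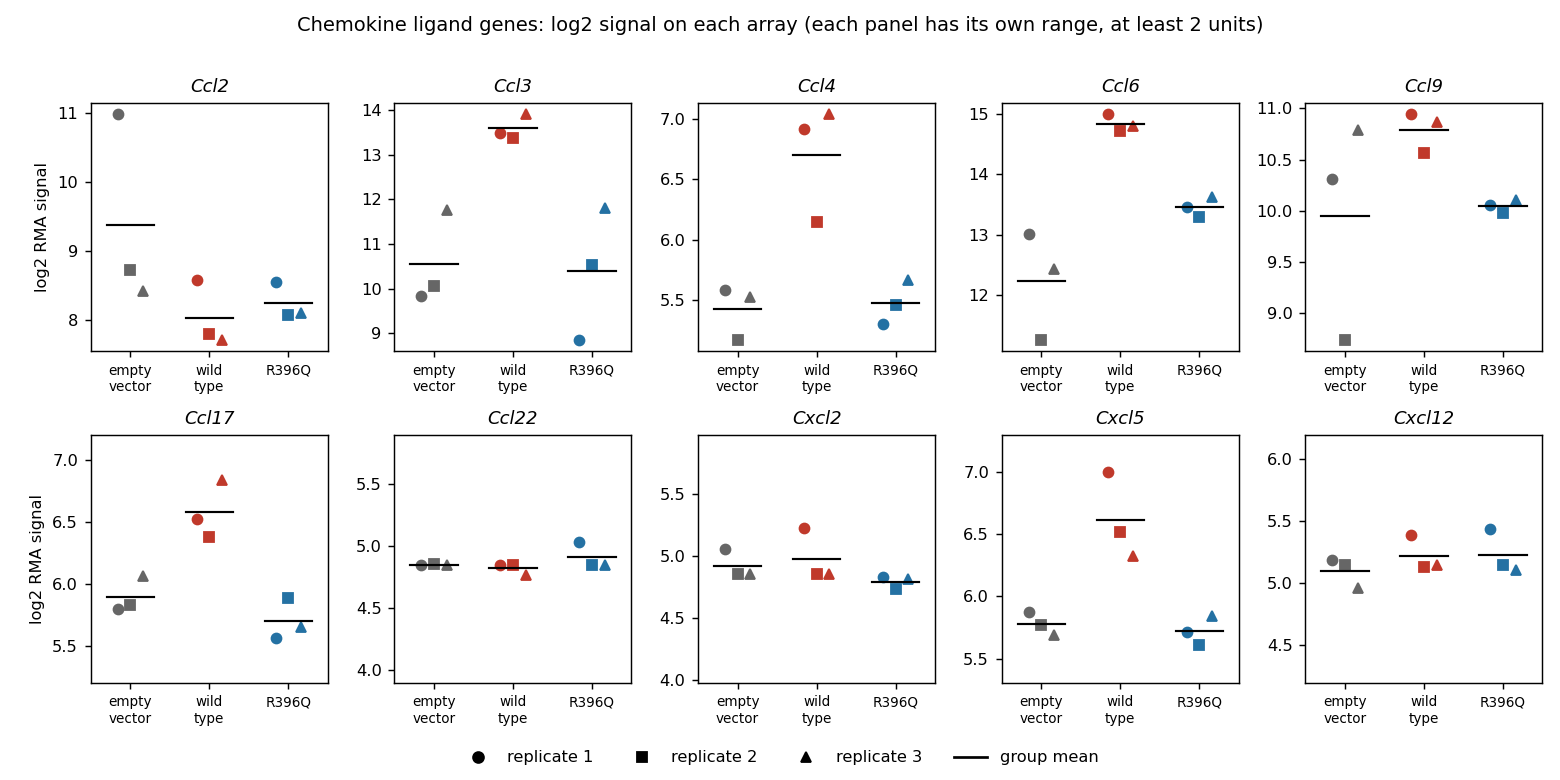
Log2 RMA signal of each of the 10 chemokine ligand genes (vertical axis, own range in each panel) on the 3 arrays of each group, with a bar at the group mean. The wild type points of Ccl3, Ccl4, Ccl6, Ccl17 and Cxcl5 lie above all other arrays, and Ccl2 is highest on empty vector 1, at 10.99.

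**Figure D2:**
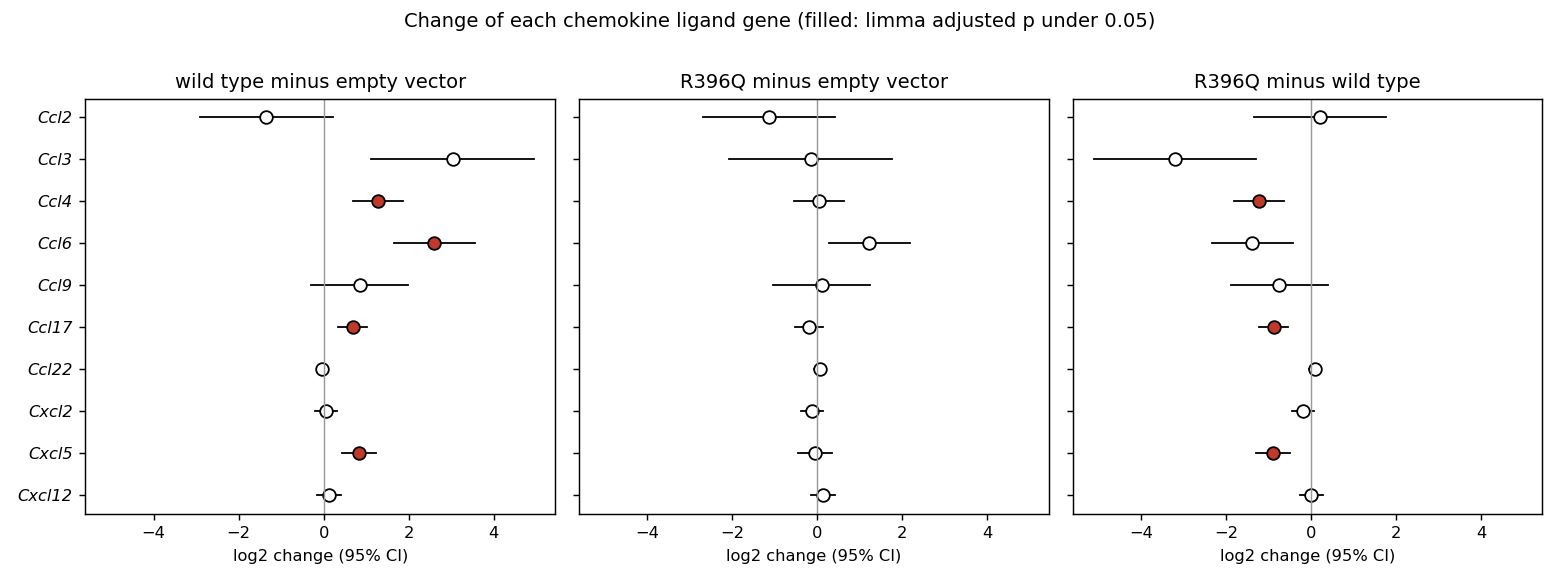
Log2 change of each gene in the 3 comparisons, with the 95% confidence interval from limma. Filled points passed the test, that is, Ccl4, Ccl6, Ccl17 and Cxcl5 for wild type with empty vector, no gene for R396Q with empty vector, and Ccl4, Ccl17 and Cxcl5 for R396Q with wild type.

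Ccl3 and Ccl4 (macrophage inflammatory proteins 1 alpha and 1 beta) are inflammatory CC ligands, and Ccl6 and Ccl9 are rodent ligands of the receptor Ccr1. Ccl6 read 14.99, 14.72 and 14.79 (log2 signal) with wild type, 13.01, 11.26 and 12.43 with empty vector, and 13.46, 13.30 and 13.62 with R396Q. The groups did not overlap, with wild type highest, R396Q between and empty vector lowest. The rise with wild type was 6.08-fold (2.60 on the log2 scale, SE 0.40, 95% interval 1.65 to 3.56, limma adjusted p = 0.0097), and within the 3 replicate numbers it was 1.98, 3.46 and 2.37. Leaving out any 1 array kept this call (adjusted p up to 0.0393), whereas the fit on these 2 groups alone gave an adjusted p of 0.0557.

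Ccl3 had log2 signals of 13.47, 13.38 and 13.90 with wild type, 9.84, 10.06 and 11.77 with empty vector, and 8.85, 10.54 and 11.80 with R396Q. All wild type arrays lay above all others, and the third array of each other group was its highest. The difference of wild type from empty vector was 8.18-fold (3.03 on the log2 scale, SE 0.81, 95% interval 1.12 to 4.94). Its limma adjusted p was 0.0669, and 0.0175 with the replicate number as a block. Within the numbers the difference was 3.64, 3.33 and 2.13. The gene passed after median subtraction (adjusted p = 0.0498), without the dimmest 30% of clusters (0.0415) and without those of fewer than 6 distinct values (0.0357). It also passed without R396Q 1 (adjusted p = 0.0395) or R396Q 3 (0.0496), which enter only through the pooled spread, and its adjusted p was up to 0.176 when another array was left out.

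Ccl4 had log2 signals of 6.91, 6.14 and 7.04 with wild type, 5.58, 5.17 and 5.53 with empty vector, and 5.30, 5.46 and 5.67 with R396Q, so the empty vector values lay under the array medians. Ccl4 rose 2.41-fold with wild type (1.27, SE 0.25, 95% interval 0.68 to 1.86, limma adjusted p = 0.0236), and by 1.33, 0.97 and 1.51 within the numbers. Leaving out wild type 1, wild type 3 or one of the empty vector arrays ended the call (adjusted p up to 0.0796). In the RefSeq gene table the spans of Ccl3 and Ccl4 overlap, and no source used here says which probes lie in the shared stretch.

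Ccl9 did not follow its neighbour Ccl6 in the test. Its log2 signals were 10.94, 10.56 and 10.87 with wild type, 10.31, 8.74 and 10.79 with empty vector, and 10.06, 9.98 and 10.11 with R396Q. Empty vector 2 stood far below the other 8 arrays, and empty vector 3 lay within the wild type range. The difference of wild type from empty vector was 0.84 (SE 0.48, 95% interval -0.29 to 1.98, limma adjusted p = 0.370), and 0.24 without empty vector 2.

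Mast cells and basophils are known makers of Ccl3 and Ccl4, and markers of these cells moved in the same comparison. Of 13 measured mast cell and basophil markers, 8 rose with wild type and none fell. The 13 include Gata2, the gene that the vector adds, so its own signal cannot serve here as a sign of these cells. With Gata2 included, the mean log2 signal of the 13 markers was 11.08 to 12.40 with wild type and 8.54 to 9.96 with empty vector. It was 9.60 to 10.32 with R396Q, and no marker lay under the lower quartile on all 9 arrays. Of 14 monocyte and macrophage markers, another source of these ligands, 6 fell with wild type and none rose, and their mean was 6.48 to 7.25 with wild type, 8.46 to 9.95 with empty vector and 7.19 to 7.83 with R396Q. Among other lists, 7 of 9 erythroid and 1 of 7 eosinophil markers rose with wild type (4 of 7 eosinophil markers with the replicate block, median change 4.40), and none of 11 lymphoid markers changed in either direction. Over all clusters 4.64% rose and 4.35% fell in this comparison, and with the replicate block 1685 and 1982 of 21072 did. The part of any of these cell types in the ligand signals was not tested.

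**Figure D3:**
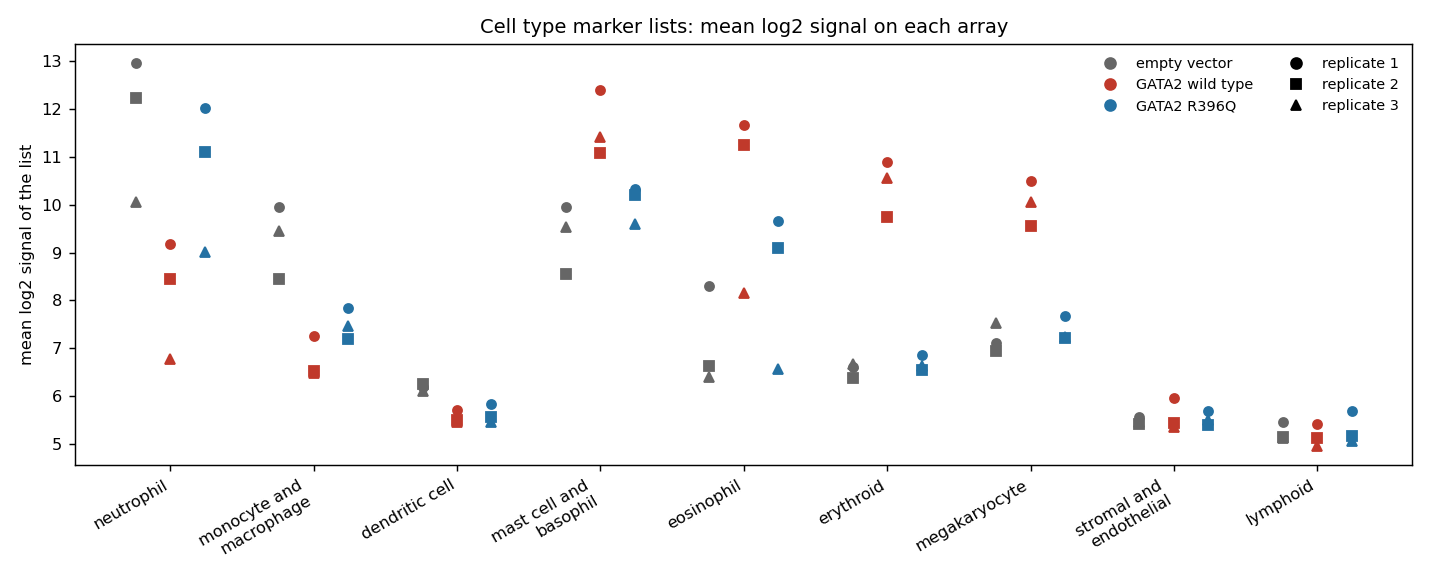
Mean log2 signal of each cell type marker list (vertical axis) on each of the 9 arrays, by group. Mast cell and basophil, erythroid and megakaryocyte lists are highest on the wild type arrays, the monocyte list is highest on the empty vector arrays, the neutrophil list is at 10.05 to 12.96 on them and 6.78 to 9.17 on the wild type arrays, and stromal and lymphoid lists lie between 4.96 and 5.96 on all arrays.

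Ccl17 and Ccl22 are the ligands of Ccr4, a receptor of helper T cells, and are known as products of dendritic cells and macrophages. Ccl17 had log2 signals of 6.53, 6.38 and 6.84 with wild type, 5.80, 5.83 and 6.06 with empty vector, and 5.57, 5.89 and 5.65 with R396Q. Every wild type array lay above the other 6, each of which was under its array's median. Ccl17 rose 1.61-fold with wild type (0.68, SE 0.14, 95% interval 0.35 to 1.02, limma adjusted p = 0.0299), and by 0.73, 0.55 and 0.78 within the numbers. Leaving out R396Q 3, wild type 1 or 3, or empty vector 1 or 2 ended the call (adjusted p up to 0.0929). Ccl22 was flat, at 4.77 to 5.03 on the 9 arrays with only 4 distinct values, and its difference was -0.03 (95% interval -0.16 to 0.10). Of 12 dendritic cell markers, 4 fell and 1 rose with wild type, against 4.35% and 4.64% of all clusters. Their mean was 5.46 to 5.70 with wild type and 6.09 to 6.25 with empty vector, and Clec9a lay under the lower quartile on all 9 arrays. Their part in the Ccl17 signal was not tested.

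Cxcl2 and Cxcl5 attract neutrophils through Cxcr2. Cxcl5 had log2 signals of 7.0, 6.52 and 6.32 with wild type, 5.88, 5.77 and 5.69 with empty vector, and 5.71, 5.61 and 5.84 with R396Q. The wild type arrays lay above all others, whose signals were under the array medians. Cxcl5 rose 1.78-fold (0.84, SE 0.17, 95% interval 0.44 to 1.23, limma adjusted p = 0.0259), and by 1.12, 0.75 and 0.63 within the numbers. Leaving out R396Q 1, wild type 2 or one of the empty vector arrays ended the call (adjusted p up to 0.0849). Cxcl2 stayed at 4.73 to 5.23 on all 9 arrays, and its difference of wild type from empty vector was 0.06 (95% interval -0.20 to 0.32). Cxcl12 stayed at 4.95 to 5.43, with a difference of 0.12 (95% interval -0.15 to 0.40). Of 11 stromal and endothelial markers, 1 rose (Tek, which blood stem cells also express) and none fell, against 4.64% and 4.35% of all clusters. Lum and Cdh5 were under the lower quartile on all 9 arrays.

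Ccl2, the monocyte attractant that binds Ccr2, pointed the other way. Its log2 signals were 10.99, 8.72 and 8.43 with empty vector, 8.58, 7.80 and 7.71 with wild type, and 8.55, 8.08 and 8.10 with R396Q. Array 1 was the highest of each group, and empty vector 1 stood far above the other 8 arrays. The difference of wild type from empty vector was -1.35 (SE 0.66, 95% interval -2.91 to 0.21, limma adjusted p = 0.296), and without empty vector 1 it was -0.54. The related ligands Ccl7, Ccl8 and Ccl12 were also highest on empty vector 1, at 8.43, 8.21 and 6.37, and none of them passed the test. The mean of the monocyte and macrophage markers on empty vector 1, 2 and 3 was 9.95, 8.46 and 9.44, and their part in the Ccl2 signal was not tested.

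Most chemokine ligand genes lie in a few clusters in the genome, and the signals were laid out in that order (RefSeq gene table, GRCm38.p6, order only). On chromosome 11, Ccl5, Ccl9, Ccl6, Ccl3 and Ccl4 follow each other with no other protein-coding gene between them, and their changes with wild type were 0.08, 0.84, 2.60, 3.03 and 1.27. On chromosome 5, Cxcl5 is followed by Ppbp and Pf4, platelet chemokines that are stored in megakaryocyte granules, then by Cxcl3, Cxcl15, Cxcl1 and Cxcl2. The first 3 of these 7 genes rose, by 0.84, 4.78 and 2.81, while the last 4 had changes of 0.15, 0.06, 0.01 and 0.06 and did not pass the test (with the replicate block Cxcl3 did, at an adjusted p of 0.0336). On chromosome 8 the order is Ccl22, Cx3cl1 and Ccl17, with changes of -0.03, 0.32 and 0.68. Ccl2 opens another stretch of chromosome 11, where Ccl2, Ccl7, Ccl11, Ccl12, Ccl8 and Ccl1 had changes of -1.35, -1.30, -0.15, -0.94, -1.03 and -0.0018, and none passed the test (with the block Ccl12 did, at 0.0390). Of 7 megakaryocyte markers 6 rose with wild type, against 4.64% of all clusters. Their mean was 9.55 to 10.49 with wild type and 6.94 to 7.53 with empty vector, and their part in the signals of Cxcl5, Ppbp and Pf4 was not tested.

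**Figure D4:**
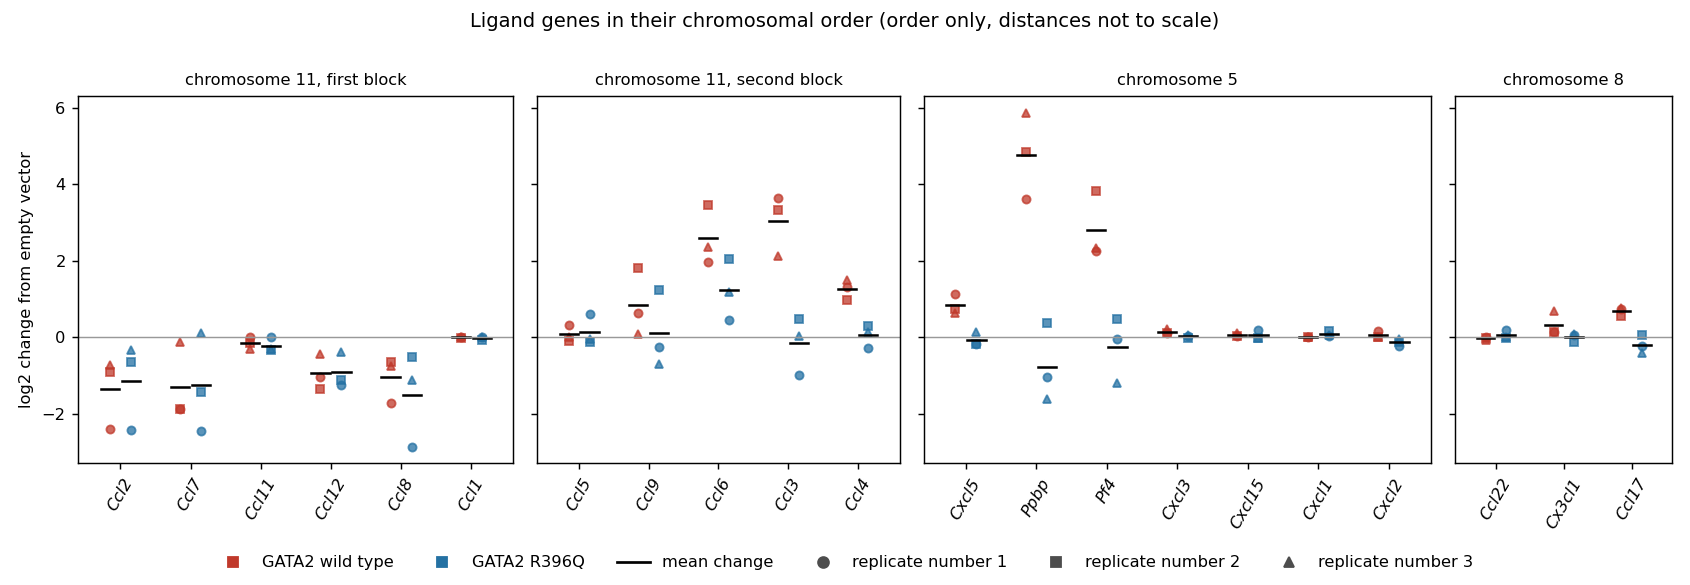
Log2 change from empty vector (vertical axis) of ligand genes in their order along chromosomes 11, 5 and 8, with a point for each replicate number and a bar at the mean. With wild type, all 3 points are above 0 for Ccl9, Ccl6, Ccl3 and Ccl4 on chromosome 11. The same holds for Cxcl5, Ppbp and Pf4 on chromosome 5 and for Cx3cl1 and Ccl17 on chromosome 8. Cxcl3, Cxcl15, Cxcl1 and Cxcl2 lie near 0, though with wild type all 3 points of Cxcl3, Cxcl15 and Cxcl1 are also slightly above it.

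The RefSeq promoter sequences used here covered 7 of the 10 genes, all but Ccl2, Ccl4 and Cxcl5. The 250 bases before the start given with each sequence were searched on both strands for a GATA motif (AGATAA and its variant AGATAG, and TGATAA with its variant TGATAG), the kappaB motif and the AP-1 motif TGANTCA. The first 3 sequences belong to genes whose wild type arrays all lay above the others, and the last line is a window of Cxcl2, which was flat, around its kappaB match. Capitals mark matches to any of these motifs, and Ccl3 and Ccl6 had none.
Ccl3, GRCm38.p6 chr11:83649379-83649628, minus strand: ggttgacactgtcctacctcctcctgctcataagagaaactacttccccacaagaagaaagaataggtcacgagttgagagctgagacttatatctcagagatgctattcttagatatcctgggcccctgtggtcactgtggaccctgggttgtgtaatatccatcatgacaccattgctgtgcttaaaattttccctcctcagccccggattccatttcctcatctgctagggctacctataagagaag
Ccl6, GRCm38.p6 chr11:83593088-83593337, minus strand: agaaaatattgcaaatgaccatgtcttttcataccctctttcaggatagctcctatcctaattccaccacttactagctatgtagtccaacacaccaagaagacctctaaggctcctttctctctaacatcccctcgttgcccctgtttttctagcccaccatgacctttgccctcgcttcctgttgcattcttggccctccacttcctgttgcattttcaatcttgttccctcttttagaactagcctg
Ccl17, GRCm38.p6 chr8:94810203-94810452, plus strand: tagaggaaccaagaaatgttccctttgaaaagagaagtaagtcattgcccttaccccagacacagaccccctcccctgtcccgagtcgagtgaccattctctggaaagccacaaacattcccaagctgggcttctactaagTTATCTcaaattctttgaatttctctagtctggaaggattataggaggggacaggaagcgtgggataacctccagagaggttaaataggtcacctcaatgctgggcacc
Cxcl2, GRCm38.p6 chr5:90903779-90903838, plus strand: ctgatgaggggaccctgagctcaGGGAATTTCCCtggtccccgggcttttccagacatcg

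A GATA match was found in 1 of the 7 promoters, that of Ccl17, 104 to 109 bases before the start used, which for this gene lies inside the gene's span in the RefSeq gene table and not at its end. The motif was found in 26.5% of 32851 promoters. The kappaB motif matched in 2 of 7, Cxcl2 and Ccl9, and in 3.90% of all promoters, and the pair of matches in Cxcl2 overlap each other by all but 1 base. AP-1 matched in 1 of 7, Ccl9, and in 6.75% of all promoters. These matches describe letters in a short window and say nothing of binding.

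The comparison of R396Q with empty vector asked what the variant did to the same genes, and uses the same empty vector arrays. None of the 10 passed the test (limma), against 1.23% of all clusters (0.66% higher and 0.569% lower). The number with an unadjusted p under 0.05 was 1. With the replicate number as a block the count was also 0, against 349 clusters higher and 283 lower of 21072. The median change was -0.01, as over all clusters. The gene with the smallest p was Ccl6, whose R396Q arrays all lay above the empty vector arrays, by 2.34-fold (1.23, SE 0.40, 95% interval 0.27 to 2.18, limma adjusted p = 0.276, and 0.137 with the block). Within the numbers the difference was 0.44, 2.04 and 1.19. Groups did not overlap for 2 of the 10 genes, Ccl6 and Cxcl2 (a difference of -0.13), against 14.1% of all clusters (6.98% higher and 7.1% lower).

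For the other genes that rose with wild type, the 95% intervals of R396Q against empty vector were -0.54 to 0.63 for Ccl4, -0.53 to 0.14 for Ccl17 and -0.46 to 0.33 for Cxcl5. For Ccl3 the interval was far wider, -2.07 to 1.75. The Ccl2 difference was -1.14 (95% interval -2.70 to 0.42), and -0.33 without empty vector 1.

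The comparison of R396Q with wild type set the variant group against the wild type group. Gata2 signal also differed, at 10.53 to 10.72 with R396Q and 10.94 to 11.50 with wild type. The part of this difference in the ligand changes was not tested. Ccl4, Ccl17 and Cxcl5 were lower with R396Q and none of the 10 was higher, against 3.08% and 2.67% of all clusters (5.75% in either direction, limma adjusted p under 0.05). Ccl17 was 1.84-fold lower (-0.88, SE 0.14, adjusted p = 0.0160), Cxcl5 1.86-fold lower (-0.90, SE 0.17, adjusted p = 0.0267) and Ccl4 2.33-fold lower (-1.22, SE 0.25, adjusted p = 0.0363). Ccl3 was 9.13-fold lower (-3.19, SE 0.81), with a limma adjusted p of 0.0761, and 0.0195 with the replicate block, which brought the count to 4. The block fit called 1253 of all 21072 clusters lower and 1497 higher. The third array pair showed the smallest Ccl3 difference, -2.10, and the others were -4.63 and -2.85. Ccl6 was 2.60-fold lower (-1.38, SE 0.40, limma adjusted p = 0.118, and 0.0608 with the block). It passed without empty vector 2, at 0.0113. In the fit on these 2 groups alone the called genes were Ccl6 (0.0133) and Ccl9 (0.0449), while Ccl4 (0.105), Ccl17 (0.0598) and Cxcl5 (0.0974) lost their calls. The count of 3 was 1 without empty vector 1 or 3, wild type 1, R396Q 2 or R396Q 3, and 0 without R396Q 1. Adjusted p reached 0.128 for Ccl4, 0.0653 for Ccl17 and 0.099 for Cxcl5 with 1 array left out. R396Q lay wholly below wild type for 7 of the 10 genes, those 5 with Ccl9 and Cxcl2, against 9.59% of all clusters (20.6% in either direction). The median change of the 10 genes was -0.81, and 0.00 over all clusters. This comparison and that with empty vector share the wild type arrays.

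Of 27 other measured chemokine ligands, 2 rose and 1 fell with wild type (3 and 2 with the replicate block), none rose and 1 fell with R396Q against empty vector, and 2 fell in R396Q against wild type. Without the block, calls were 11.1%, 3.70% and 7.41% of the 27 in these comparisons, against 8.99%, 1.23% and 5.75% of all clusters. The median changes of the 27 were 0.01, -0.04 and -0.02. Ppbp had log2 signals of 13.79, 13.21 and 13.35 with wild type, 10.18, 8.37 and 7.47 with empty vector, and 9.14, 8.74 and 5.85 with R396Q. It was 27.4-fold above empty vector (log2 SE 1.00, limma adjusted p = 0.0299). That call was lost without empty vector 2 or 3, any 1 wild type array or R396Q 2 (up to 0.0958) and with array weights (0.0547). The Ppbp change of 4.78 on the log2 scale was 5.53 without empty vector 1 and 4.18 without empty vector 3. Pf4 read 15.79 to 15.87 with wild type and 11.95 to 13.61 on the other 6 arrays. Its rise over empty vector was 7.0-fold (log2 SE 0.51, adjusted p = 0.0175). The Pf4 call was lost without any 1 wild type array (up to 0.0587) and in the fit on these 2 groups alone (0.0507). Both were lower with R396Q than with wild type, 46.6-fold for Ppbp and 8.35-fold for Pf4. On the log2 scale the Ppbp difference was -5.54, and -4.51 without R396Q 3 or -6.16 without R396Q 1. Without any 1 wild type array or R396Q 2, and for Pf4 also R396Q 3, those calls were lost (adjusted p up to 0.0804 and 0.0682). The Ppbp call was also lost in the fit on these 2 groups alone (0.0592).

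Ccl24, an eosinophil attractant made by macrophages, moved otherwise. It read 9.10, 10.02 and 8.17 with empty vector, 6.18, 5.34 and 6.12 with wild type, and 5.64, 5.57 and 5.70 with R396Q. Both GATA2 forms lay below empty vector, 9.31-fold for wild type (log2 SE 0.46, limma adjusted p = 0.0071) and 11-fold for R396Q (adjusted p = 0.0197). The R396Q call was lost without empty vector 1, wild type 3 or any 1 R396Q array (up to 0.0897), and in the fit on these 2 groups alone (0.101). Monocyte and macrophage markers fell in both comparisons as well, 6 and 3 of 14 (8 and 5 with the replicate block). Over all clusters 4.35% and 0.569% fell (1982 and 283 of 21072 clusters with the block). The part of these markers in the Ccl24 signal was not tested.

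Of the receptors of these ligands, Ccr2 fell and Cxcr2 rose with both GATA2 forms. Ccr2, the receptor of Ccl2, fell 9.90-fold with wild type (-3.31, SE 0.57, limma adjusted p = 0.0150) and 27.8-fold with R396Q (-4.80, adjusted p = 0.0157). Its log2 signals were 12.25, 10.41 and 11.19 with empty vector, 8.90, 7.60 and 7.43 with wild type, and 7.01, 6.24 and 6.21 with R396Q, so the 3 groups did not overlap. R396Q was 2.81-fold below wild type, with an adjusted p of 0.233, and 0.0211 with the block. The call with wild type was lost without wild type 2 (0.0513), and that with R396Q without empty vector 3 or any 1 R396Q array (up to 0.0796). Fits on the 2 groups compared alone ended both calls (0.0656 and 0.0611).

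Cxcr2, the receptor of Cxcl2, Cxcl5 and Ppbp, rose with both forms. It read 10.65, 10.12 and 9.26 with empty vector, 11.92, 11.90 and 11.92 with wild type, and 12.03, 12.40 and 11.83 with R396Q. The rises were 3.74-fold (1.90, SE 0.33, limma adjusted p = 0.0158) and 4.21-fold (2.08, adjusted p = 0.0432), and R396Q differed from wild type by 0.17 (95% interval -0.62 to 0.96). The call with R396Q was lost without empty vector 2 or any 1 array of the other 6 (up to 0.163), and that with wild type without wild type 1 (0.0538). Fits on the 2 groups compared alone ended both (0.176 and 0.0656). Cxcr2 is best known on neutrophils. Of 15 neutrophil markers 5 fell and none rose with wild type (11 and 0 with the replicate block), and 1 fell and none rose with R396Q against empty vector (2 and 0). Over all clusters 4.35% fell and 4.64% rose with wild type, and 0.569% fell and 0.66% rose with R396Q. With the block, 1982 of 21072 clusters fell and 1685 rose with wild type, and 283 fell and 349 rose with R396Q.

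Cxcr4, the receptor of Cxcl12, read 13.18, 13.10 and 13.68 with empty vector, 12.70, 12.04 and 12.58 with wild type, and 13.47, 13.33 and 13.10 with R396Q. The wild type arrays lay below all others, by 1.84-fold against empty vector, and missed the threshold (-0.88, SE 0.22, limma adjusted p = 0.0575, and 0.0502 with the block). Ccr1, the receptor of Ccl3, Ccl6 and Ccl9, was 3.37-fold lower with R396Q than with empty vector (-1.75, SE 0.45, adjusted p = 0.159) and 1.57-fold lower with wild type (adjusted p = 0.469). Ccr4 lay under the lower quartile on all 9 arrays. Of 20 measured receptors, 1 rose and 2 fell with wild type (2 and 3 with the block), 1 rose and 1 fell with R396Q against empty vector (1 and 3), and 1 fell in R396Q against wild type (2). Without the block, calls were 15%, 10% and 5% of the 20 receptors, against 8.99%, 1.23% and 5.75% of all clusters. The other receptors called were Ccr10, lower with wild type (-0.48, limma adjusted p = 0.0066), and Cx3cr1, the fractalkine receptor. Cx3cr1 was lower in R396Q than in wild type (-1.38, adjusted p = 0.0273). The Cx3cr1 call was lost without empty vector 1, wild type 1 or 2 or any 1 R396Q array (up to 0.0925), and in the fit on these 2 groups alone (0.0712).

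**Figure D5:**
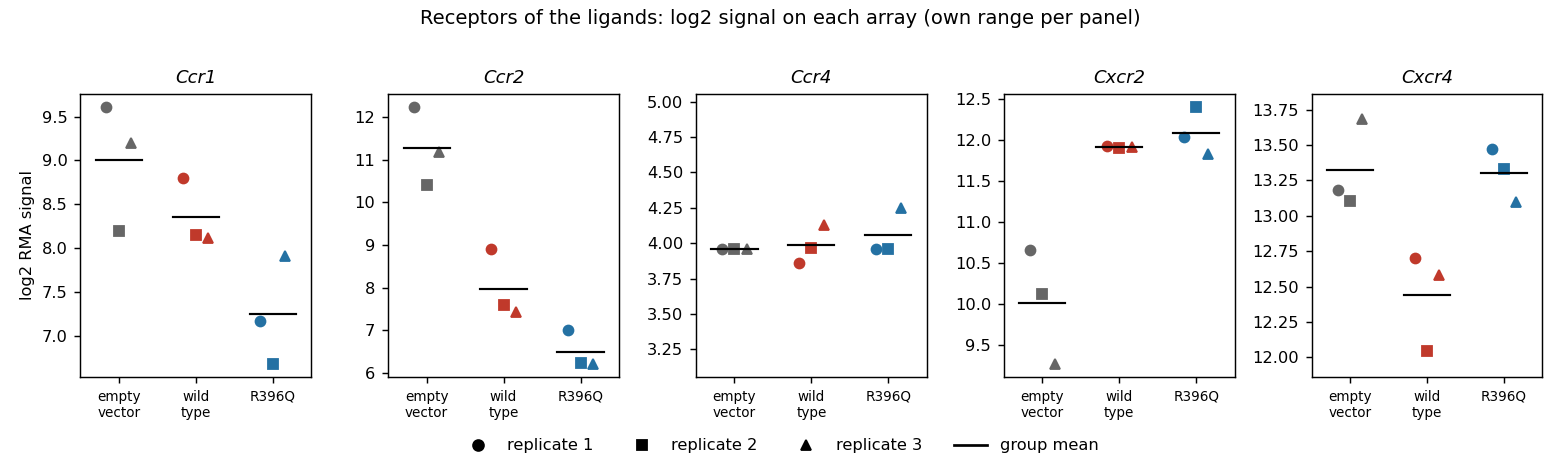
Log2 RMA signal of 5 receptors of these ligands (vertical axis, own range in each panel) on the 3 arrays of each group, with a bar at the group mean. Ccr2 is lower with both GATA2 forms, Cxcr2 is higher with both, Cxcr4 is lowest on the wild type arrays, and Ccr4 stays between 3.86 and 4.25.

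Chemokine receptors signal through inhibitory G proteins, phosphoinositide 3-kinase gamma and Rac, and arrestins and Rgs proteins end the signal. Of 22 measured genes of this signaling list, 2 rose and 4 fell with wild type (3 and 7 with the block), 2 rose and none fell with R396Q against empty vector, and 5 were higher and 2 lower in R396Q than in wild type (8 and 3). Without the block, calls were 27.3%, 9.09% and 31.8% of the 22 genes, against 8.99%, 1.23% and 5.75% of all clusters. Pik3r6, an adaptor of phosphoinositide 3-kinase gamma, moved opposite ways. It was 2.10-fold down with wild type (log2 SE 0.14, limma adjusted p = 0.0052) and 1.85-fold up with R396Q (adjusted p = 0.0392). The R396Q call was lost without any 1 array except R396Q 3 (up to 0.155), and in the fit on these 2 groups alone (0.118). R396Q was 3.88-fold above wild type for this gene (log2 SE 0.14, adjusted p = 0.00082). Elmo1, which acts with Dock proteins on Rac, fell 3.15-fold with wild type (log2 SE 0.20). Pik3r5, a second adaptor of phosphoinositide 3-kinase gamma, fell with wild type by 1.38 on the log2 scale (SE 0.25). The Pik3r5 call was lost without empty vector 3, wild type 1 or wild type 3 (adjusted p up to 0.0582), and in the fit on these 2 groups alone (0.0818). Gng2, a G protein gamma subunit gene, fell with wild type (-0.66, SE 0.12, adjusted p = 0.0176) and was higher in R396Q than in wild type (0.65, adjusted p = 0.0250). Its calls were lost in fits on the 2 groups compared alone (0.0546 and 0.0743), the first also without empty vector 1 or 3 (up to 0.0568), and the second without empty vector 3, wild type 1 or 3 or R396Q 1 or 2 (up to 0.0892). Grk3, a receptor kinase gene, was higher in R396Q than in wild type (0.67, SE 0.09, adjusted p = 0.0087, and 0.0510 in the fit on these 2 groups alone). With wild type against empty vector, Arrb1, an arrestin, rose 2.14-fold (log2 SE 0.13, limma adjusted p = 0.0037). Rgs18, a brake on G protein signals in platelets, rose 1.88-fold in that comparison (log2 SE 0.12, adjusted p = 0.0062). Both were lower in R396Q than in wild type, with log2 changes of -1.42 for Arrb1 (adjusted p = 0.0021) and -0.61 for Rgs18 (0.0374). The latter Rgs18 call held in 10 of 19 alternative settings. The inhibitory G protein gene Gnai3 rose 2.69-fold with R396Q against empty vector (log2 SE 0.15, adjusted p = 0.0094, and 0.0775 in the fit on these 2 groups alone). With wild type it was 1.35-fold higher than with empty vector (adjusted p = 0.138).

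Many inflammatory chemokine genes are known targets of NF-kappaB. Of 21 measured genes of that pathway, 2 rose and 3 fell with wild type (2 and 6 with the block), none changed with R396Q against empty vector (0 and 2 with the block, and 3 with an unadjusted p under 0.05 in limma), and 2 were higher and 1 lower in R396Q than in wild type. Without the block, calls were 23.8%, 0% and 14.3% of the 21 genes, against 8.99%, 1.23% and 5.75% of all clusters. Rel, a subunit of NF-kappaB, fell 3.91-fold with wild type (-1.97, SE 0.24, limma adjusted p = 0.0038). Tnf, an inducer and target, fell 3.09-fold (-1.63, SE 0.21, adjusted p = 0.0048). Il1b, another target, rose 8.03-fold (3.01, SE 0.52, adjusted p = 0.0153), with log2 signals of 8.01, 9.25 and 9.98 with wild type and 5.25 to 6.36 on the other 6 arrays. That call was lost without empty vector 1 or wild type 2 (adjusted p up to 0.0519), and in the fit on these 2 groups alone (0.0531). The other genes called were Traf1, which rose (0.61, SE 0.11), and Relb, which fell (-0.25, SE 0.047). Traf1 lost its call without empty vector 1 or wild type 1 (up to 0.0577), and Relb without array 2 or 3 of the empty vector or wild type groups (up to 0.0686). The Relb call was also lost with trend and robust options (0.0514), without the dimmest 50% of clusters (0.0704) and without clusters of fewer than 6 distinct values (0.0513). Fits on these 2 groups alone ended both calls (0.0749 for Traf1 and 0.0868 for Relb).

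The genes most like each ligand in pattern were sought among 18787 other symbols, by the root mean square difference of values centred on each gene's own mean over the 9 arrays. The 4 ligand genes with a span of at least 2 on the log2 scale were compared. Ccl2 was nearest to the complement gene C1qb (0.16) and the collagenase gene Mmp13 (0.25), which were likewise highest on empty vector 1, at 7.12 and 7.86, and C1qb is on the monocyte and macrophage list. Ccl3 was nearest to the receptor gene Cd200r4 (0.53) and Pcyt1b (0.69), and Ccl6 to the platelet integrin gene Itga2b (0.39), which is on the megakaryocyte list, and the Cd9 pseudogene Cd9-ps (0.40), whose probes may also read Cd9. Ccl9 was nearest to Tmem9b (0.30) and Cenpt (0.31). Mmp13, Pcyt1b, Tmem9b and Cenpt had exactly equal signals on some arrays. The root mean square differences describe 9 arrays in 3 groups and carry no test.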

How the data were processed

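The deposited table holds log2 values, 1 for each array and transcript cluster, which the authors computed by RMA. The submitters' processing notes name Affymetrix Expression Console. No version or genome build is given in the sources used here, and 0 columns were left out. Values were used as deposited. Some signals are exactly equal on several arrays, and not only low ones. Cenpt, for example, read 10.59 on empty vector 3, wild type 2, R396Q 1 and R396Q 3. Small changes of dim genes are uncertain.

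Symbols came from the array annotation, updated through gene identifiers (418 of 18236 matched). Of 21072 clusters 18992 had 1 symbol, 1390 several and 690 none. Each cluster was fitted with limma 3.58.1 in R 4.3.3 (1 mean per group over 9 arrays, 6 residual and 0.956 prior degrees of freedom, 2-sided, Benjamini-Hochberg over all clusters, threshold 0.05), checked on simulated data. Fold is the antilog of a log2 change, and every SE is on the log2 scale. The members and lists were chosen with earlier results of these data known. All 10 members were named. Of each other list, up to 8 genes past the test were named, with the members' receptors, and likeness was sought for members with a span of at least 2.

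Deviations of same-numbered arrays from their group means correlated at r of 0.451 to 0.693 (9 pairs), and those of different numbers at -0.537 to -0.0900 (18 pairs). The labels do not say what a number shares. A replicate block was therefore one alternative, beside fits on 2 groups, trend and robust options, array weights, median and quantile scaling, filters on dim clusters, averaging clusters that share a symbol, and dropping each array in turn. A filter on clusters with fewer than 6 distinct values was added after seeing the data. Precision is limited by having 3 arrays a group.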

Additional observations from a re-analysis of the deposited data

How the results depend on the processing

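Of 549 pairs of a member's change and an alternative setting, 486 kept their direction and side of the threshold, 38 lost a call, 15 gained one and 10 turned sign. For the other named genes 562 of 664 were kept and 102 lost a call. No named change turned sign under median subtraction or quantile normalization (0), and the median of all clusters moved by less than 0.1. The block changed the Ccl3 calls and no other member's call.

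Signs turned for changes that never passed the test. Without 1 array, the change with R396Q against empty vector ran from -0.86 to 0.62 for Ccl3, -0.081 to 0.14 for Ccl4, -0.50 to 0.53 for Ccl9 and -0.0024 to 0.090 for Ccl22. That of Cxcl2 with wild type ran from -0.066 to 0.12, and that of Cxcl12 in R396Q against wild type from -0.095 to 0.091.

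Counts follow 1 order, the first being wild type and the second R396Q, each set against empty vector, and the third R396Q set against wild type. With the replicate block all clusters called were 3667, 632 and 2750 (1894, 259 and 1211 without it), other ligands 5 in the first, receptors 5, 4 and 2, NF-kappaB genes 8 in the first and 2 in the second, and signaling genes 10 in the first and 11 in the third. With only the groups compared, where fewer arrays estimate the spread, all clusters were 1026, 94 and 772, members 0 in the first and 2 in the third (Ccl6 and Ccl9, neither of them among the 3 called over all arrays), other ligands 0 in the second and 1 in the third, receptors 1, 0 and 0, signaling genes 0 in the second and NF-kappaB genes 2 in the first. Without the dimmest 50% of clusters, which leaves 4 members, 2 were called in the first and 1 in the third. Receptors in the third were 2 there, with array weights, after median subtraction and with at least 6 distinct values. Without 1 array, all clusters were 1285 to 1724, 85 to 304 and 650 to 1153, members 1 to 4, 0 to 0 and 0 to 4, other ligands 1 to 3, 0 to 1 and 0 to 2, receptors 2 to 3, 0 to 2 and 0 to 1, signaling genes 5 to 8, 1 to 3 and 5 to 8, and NF-kappaB genes 3 to 6, 0 to 1 and 2 to 3. The cause of these shifts was not tested. Ccl4, Ccl17, Ccl22, Cxcl2, Cxcl5 and Cxcl12 lie near or under the array medians, and the values carry no call above background.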
